A study of Caenorhabditis elegans with 15 samples.

Results

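The comparison described here sets the intestinal transcriptome of gas-1 mutant Caenorhabditis elegans that overexpress cest-2.2 against that of the gas-1 mutant. Its members are 10 of the 15 libraries of the study, taken by their strain labels: 5 from gas-1(fc21) worms that overexpress cest-2.2 (gas-1 cest-2.2 OE, called OE here) and 5 from gas-1(fc21) worms (gas-1). Both groups therefore carry the gas-1(fc21) allele, and they differ by label only in the overexpression. Any other difference in the background of the strains cannot be told apart from the overexpression. Another 5 libraries came from wild type worms. They entered the shared estimate of the spread and are given beside some values as a description. All worms were 5 days old and had grown on OP50 bacteria, and each library was made from the total RNA of 20 dissected intestines by Smart-seq2, which amplifies full-length transcripts and keeps no strand information, so that reads of a gene and of an overlapping antisense gene cannot be told apart. The titles give all 5 OE libraries the same strain name, so independent overexpressing lines cannot be compared. The labels do not give the promoter or the copy number of that strain. They also do not say whether the 5 libraries of a group came from separate cultures. The p-values then measure the spread between these libraries, which may be technical. Gene names rest on reading each numeric target as a line of the deposited transcript list, a reading that annotated transcript lengths bear out for 99.96% of 27233 non-coding transcripts.

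gas-1 encodes the 49 kDa-type core subunit of respiratory complex I, the NADH dehydrogenase of the mitochondrial inner membrane, and worms with the fc21 allele are known for reduced complex I respiration, oxidative stress and short life. cest-2.2 belongs to the carboxylesterase family, enzymes that split ester bonds in lipids and foreign compounds. The worm intestine is the site of digestion and fat storage, makes the yolk proteins, and is the main tissue of detoxification and of defence against swallowed microbes. Which of these functions differed between the strains was read from groups of genes with known roles. Each named gene was refitted in up to 26 alternatives (other tools, filters and scalings, a germline covariate, or a library left out), and a call that was lost in 5 or more of them has that number beside it.

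Total estimated counts were 12785262 to 45896053 in OE libraries and 12607565 to 17688689 in gas-1 libraries. Levels are CPM (counts relative to the TMM-scaled library total), given for replicates 1 to 5 in that order, and means carry their SD over 5 libraries. Fold changes are log2 values of OE over gas-1 with the standard error of the fit. Adjusted p-values come from edgeR's quasi-likelihood test with Benjamini-Hochberg adjustment over all 10585 tested genes, and a gene was called under 0.05. Log2 CPM correlated across genes at 0.891 to 0.926 between OE libraries and at 0.855 to 0.925 between gas-1 libraries. In a principal component analysis of the 10 libraries, gas-1 replicate 5 stood apart from the rest, with a first component score of -101, against 27 to 63 for the OE libraries and -43.5 to 2.22 for the other gas-1 libraries. Yolk protein genes took 36.6%, 25.97%, 35.9%, 44.4% and 34.4% of the counts in OE, against 29.6%, 25.6%, 29.99%, 26.9% and 33.6% in gas-1. Germline markers summed to 2761 to 4364 CPM in OE and 1798 to 3292 CPM in gas-1, with overlap, and OE replicate 2 had the highest sum.

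The overexpressed gene was read first. cest-2.2 (chromosome V, 14171639 to 14175355, WBcel235) had 133, 60.9, 110.2, 179 and 122.1 CPM in the OE libraries, against 34.9, 43.7, 53.6, 50.9 and 97.5 CPM in the gas-1 libraries. OE replicates 1, 3, 4 and 5 were above every gas-1 library, and OE replicate 2 was above 4 of them but below gas-1 replicate 5, so the groups overlapped. The fold change was log2 1.11 ± 0.33 and did not pass the threshold over all genes (edgeR, adjusted p = 0.109), while permuting the 10 libraries for this gene alone (exact test on log2 CPM, two-sided) gave p = 0.0159, where 0.00794 is the smallest value that 5 against 5 libraries allow. With the DESeq2 Wald test the adjusted p was 0.0450 and with TPM in limma 0.0499, and it ran from 0.0450 to 0.251 over all alternatives. Wild type libraries held 42.2 ± 17.4 CPM.

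Reads of cest-2.2 were divided between 3 annotated transcripts, and the division varied between libraries within both groups. The first transcript (ZC376.2a.1) took 48.4% to 95.2% of the gene's counts in OE and 14.3% to 98.7% in gas-1. The second (ZC376.2b.1) took 3.80% to 51.6% in OE and 1.02% to 84.6% in gas-1. The third and shortest took at most 2.14% in OE and 1.56% in gas-1. The 2 main transcripts differ little in length, at 2127 and 2074 bases, and the sum per gene was used.

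The gene beside it, cest-2.1, starts within 20 kb on the same strand and had 53.1, 23.7, 50.4, 55.6 and 41.7 CPM in the OE libraries, against 20.6, 31.8, 48.3, 28.5 and 60.8 CPM in the gas-1 libraries. Its groups overlapped throughout (log2 0.24 ± 0.32, adjusted p = 0.766, exact permutation p = 0.452). cest-2.3, the third gene of the subfamily, had 1.11 ± 1.21 CPM in OE and 0.346 ± 0.301 CPM in gas-1, too few counts for testing. Of the other genes that start within 20 kb of cest-2.2, the tRNA methyltransferase gene trm-1 had 65.9 ± 17.9 CPM in OE and 47 ± 13.2 CPM in gas-1 (log2 0.49 ± 0.20, adjusted p = 0.243), cest-1.2 had 48.9 ± 24.3 CPM in OE and 54.1 ± 35.9 CPM in gas-1 (log2 -0.15 ± 0.46, adjusted p = 0.918), cest-1.1 had 12.1 ± 7.93 CPM in OE and 12.29 ± 4.04 CPM in gas-1 (log2 -0.02 ± 0.55, adjusted p = 0.99) and ints-2, an Integrator subunit gene, had 37 ± 8.48 CPM in OE and 31.8 ± 13.7 CPM in gas-1 (log2 0.22 ± 0.27, adjusted p = 0.747). ceh-74, a homeobox gene, had 0.901 ± 0.581 CPM in OE and 0.88 ± 0.712 CPM in gas-1 (log2 0.04 ± 0.97, adjusted p = 0.992). srd-26, AH10.2, ocam-1, ZC376.8 and 21ur-15383 averaged at most 0.0647 CPM in OE and at most 0.0374 CPM in gas-1 and were not tested. None of the tested neighbours was called.

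gas-1 itself (chromosome X, 15586786 to 15590397) had 140.4, 89.9, 132, 150.2 and 92 CPM in the OE libraries, against 145, 94.7, 118.8, 117 and 142.5 CPM in the gas-1 libraries. The ranges nearly coincided (log2 -0.03 ± 0.19, adjusted p = 0.963, exact permutation p = 0.818). fc21 is a missense allele, so the transcript count checks no label. Among 8 tested genes that are commonly used as markers of transformation, edgeR called 0, with 2 at a p under 0.05 before adjustment, and DESeq2, limma-voom and TPM in limma called 0 as well. The lowest p of them belonged to unc-119, whose libraries did not overlap (log2 1.60 ± 0.61, adjusted p = 0.212).

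**Figure D1:**
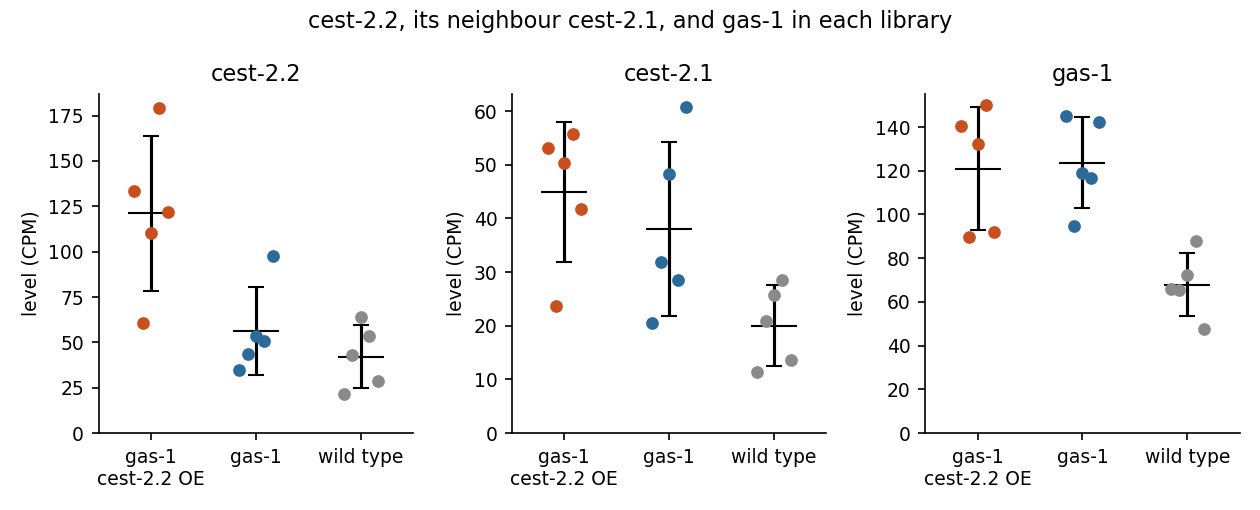
Level in CPM (vertical axis) of cest-2.2, cest-2.1 and gas-1 in each library of gas-1 cest-2.2 OE, gas-1 and wild type, where points are libraries and bars are the mean and SD of 5. In cest-2.2 the OE points average 121 CPM and the gas-1 points 56.1 CPM, with OE replicate 2 at 60.9 CPM below gas-1 replicate 5 at 97.5 CPM, while gas-1 averages 121 CPM in OE and 124 CPM in gas-1.

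In the overexpressing strain, the lysozyme genes lys-4 and lys-5, the alcohol dehydrogenase gene adh-1, the stress protein gene lea-1 and the chromosome V gene F56A4.3 rose. The zinc transporter gene zipt-2.3, the bZIP factor gene zip-11, the infection response gene irg-4 and the aspartyl protease gene asp-12 fell. These 9 genes kept their calls in every alternative. edgeR called no gene of the respiratory chain. Across the transcriptome, edgeR called 168 of 10585 genes (1.59%), 67 higher in OE (0.633%) and 101 lower (0.954%). DESeq2 called 235 higher and 322 lower, and limma-voom 79 and 136. Of the falls called by edgeR, 93 were at least 2-fold and 45 at least 4-fold, against 42 and 13 of the 67 rises. The median log2 fold change was 1.15 among called rises and -1.78 among called falls. The called falls were also the rarer transcripts, with a median of 18.7 CPM over the 10 libraries, against 47.1 CPM for the called rises. The libraries of the groups did not overlap in 398 genes (3.76%), among them 54 of the called rises and 95 of the called falls. Nearly all called genes, 163, were protein-coding.

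Which libraries lay at the edges of these calls was uneven. OE replicate 2, the OE library with the highest germline marker score and the lowest yolk share, was the lowest OE library in 57 of the 101 called falls and in 25 of the 67 called rises. OE replicate 4, with the highest yolk share, was the highest OE library in 25 of the rises and in 34 of the falls, and OE replicate 2 was the highest in 20 of the rises. Among the gas-1 libraries, replicate 5 was the highest and replicate 4 the lowest in 36 of the falls each, and replicate 2 was the highest in 25 of the rises. The count of calls moved with single libraries: without gas-1 replicate 2 edgeR called 226 rises and 154 falls, and without gas-1 replicate 1 it called 30 rises and 55 falls. With the germline score as a covariate it called 98 rises and 39 falls, of which 31 rises and 38 falls were among the calls above. With TPM in limma, which shifts the median of all genes by -0.126, it was 51 rises and 291 falls, so that 14.9% of calls were rises, against 39.9% above.

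**Figure D2:**
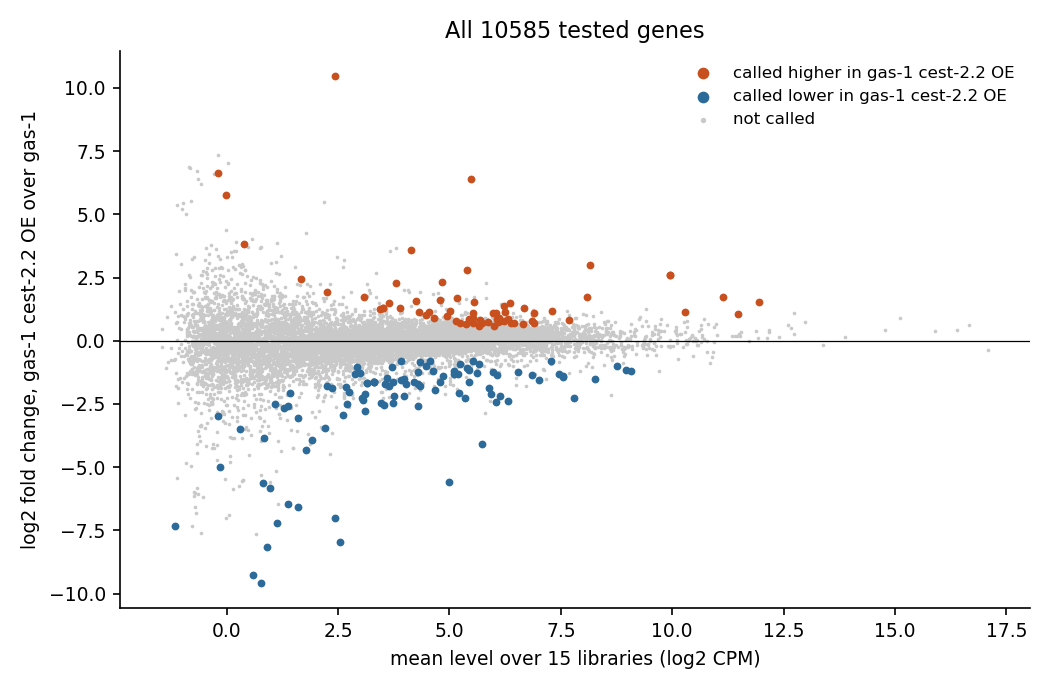
Log2 fold change of gas-1 cest-2.2 OE over gas-1 (vertical axis) against the mean level over 15 libraries in log2 CPM (horizontal axis) for all 10585 tested genes, with 67 genes called higher in orange, 101 called lower in blue and the rest in grey. The called falls have a median level of 18.7 CPM over the 10 libraries and a median log2 change of -1.78, and the called rises 47.1 CPM and 1.15.

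Lysozymes, which digest bacterial cell walls, included lys-4, the called gene with the highest mean count. Over all tested genes 0.633% were called higher and 0.954% lower, and the counts of this and the later lists stand against these shares. Of 12 tested lysozyme genes, 2 rose and 1 fell, and the median log2 fold change was 0.51, against 0.03 over all genes. With the germline score as a covariate edgeR called 3 higher and 1 lower, and the median was 1.05. lys-4 had 7492, 3901, 8068, 8404 and 9360 CPM in the OE libraries, against 3029, 1911, 3390, 2043 and 2433 CPM in the gas-1 libraries. Every OE library lay above every gas-1 library, the lowest OE value being that of replicate 2 (log2 1.54 ± 0.27, adjusted p = 0.00573). Its neighbour lys-5, which starts within 20 kb of it on chromosome IV, had 73.1, 40.1, 131, 107 and 120.1 CPM in the OE libraries, against 16.6, 6.92, 16.53, 11.4 and 16.6 CPM in the gas-1 libraries. Here too the groups stayed apart, and OE replicate 2 was again the lowest of its group (log2 2.79 ± 0.33, adjusted p = 0.000215). Wild type libraries averaged 1810 ± 580.2 CPM for lys-4 and 17.2 ± 5.02 CPM for lys-5. lys-2 went the other way, with 434, 276, 369, 479 and 419 CPM in the OE libraries, against 1097, 644, 962, 741 and 908 CPM in the gas-1 libraries. All OE values were below all gas-1 values (log2 -1.14 ± 0.19, adjusted p = 0.00557).

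Saposin-like proteins, small membrane-active proteins that include antimicrobial members, had 2 rises and 0 falls among 16 tested genes, with a median of 0.43. spp-10 had 223, 126, 189, 196.2 and 157 CPM in the OE libraries, against 94, 57.2, 107, 67.9 and 95.6 CPM in the gas-1 libraries. The lowest OE library, replicate 2, was still above the highest gas-1 library (log2 1.08 ± 0.24, adjusted p = 0.0322). spp-17 had 172, 62.1, 157, 115.1 and 102 CPM in the OE libraries, against 66.9, 34.8, 66.7, 56.8 and 53.6 CPM in the gas-1 libraries, and OE replicate 2 lay below 2 gas-1 libraries (log2 1.12 ± 0.26, adjusted p = 0.0416). The call for spp-17 was lost in 12 of 26 alternatives and that for spp-10 in 7. With the germline score as a covariate edgeR called 5 saposin-like genes higher and 0 lower, and the median was 1.07.

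C-type lectins, secreted sugar-binding proteins of which many respond to infection, split in direction. Of 85 tested genes 2 rose and 5 fell, and the median was -0.09. clec-50 was one of the most abundant called transcripts, with 4508, 2426, 4290, 5593 and 4125 CPM in the OE libraries, against 1595, 804, 1488, 1145 and 1333 CPM in the gas-1 libraries. The lowest OE library, replicate 2, was above the highest gas-1 library (log2 1.72 ± 0.26, adjusted p = 0.00264). clec-209 is the other rise and is described with chromosome V. The falls were led by clec-190, with 0.711, 2.38, 0, 2.04 and 2.69 CPM in the OE libraries, against 134, 131, 7.43, 34.2 and 89.5 CPM in the gas-1 libraries. Its gas-1 libraries spread widely, with replicate 3 the lowest, and the call was lost in 1 of 26 alternatives (log2 -5.58 ± 0.77, adjusted p = 0.00109). clec-70 had 3.78 ± 0.904 CPM in OE and 19.1 ± 10.02 CPM in gas-1 (log2 -2.33 ± 0.42, adjusted p = 0.00756). The remaining falls were clec-4, with 230.2 ± 84.7 CPM in OE and 649 ± 174 CPM in gas-1, clec-265, with 365 ± 77.8 CPM in OE and 729 ± 164 CPM in gas-1, and clec-47, with 22.9 ± 9.62 CPM in OE and 59.2 ± 26 CPM in gas-1, all 3 outside the rule for named genes. With the germline score as a covariate edgeR called 9 lectins higher and 1 lower, and the median was 0.26. DESeq2 called 3 lectins higher and 14 lower, limma-voom 2 and 6, and TPM in limma 2 and 12.

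Of 33 tested infection response genes, 1 rose and 2 fell, with a median of -0.52. The rise was dod-24, a CUB-like domain gene regulated through the insulin pathway, which had 85.9, 43.8, 79.3, 113.6 and 66 CPM in the OE libraries, against 38.4, 22.1, 29.2, 20.6 and 38.4 CPM in the gas-1 libraries, without overlap (log2 1.39 ± 0.25, adjusted p = 0.00836). irg-4, another CUB-like gene that is induced by bacterial infection, fell and had 26.2, 8.55, 26.8, 22.7 and 17.6 CPM in the OE libraries, against 116, 109, 70.4, 75.1 and 87.2 CPM in the gas-1 libraries. The highest OE value was well below the lowest gas-1 value (log2 -2.17 ± 0.29, adjusted p = 0.00104). dod-17, a relative of dod-24, fell as well, with 17.2 ± 7.49 CPM in OE and 44.9 ± 6.18 CPM in gas-1 (log2 -1.39 ± 0.24, adjusted p = 0.00557). Of 15 genes of the intracellular pathogen response, a programme known from microsporidian and viral infection, 2 fell and 0 rose, with a median of -0.80. They were the adjacent pals-24, with 7.46 ± 2.03 CPM in OE and 25.6 ± 8.82 CPM in gas-1 (log2 -1.77 ± 0.32, adjusted p = 0.0082), and pals-23, with 10.3 ± 3.89 CPM in OE and 30.3 ± 7.17 CPM in gas-1 (log2 -1.56 ± 0.37, adjusted p = 0.0461). The call for pals-23 was lost in 14 of 26 alternatives. With the germline score as a covariate edgeR called 0 genes of the intracellular pathogen response, with a median of -0.49. In that fit 4 infection response genes were called higher and 2 lower, with a median of -0.11. For the intracellular pathogen response DESeq2 and TPM in limma each called 3 lower and limma-voom 2, with 0 higher. For infection response genes DESeq2 called 5 higher and 5 lower, limma-voom 2 and 2, and TPM in limma 2 and 4.

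Of 24 tested cathepsin-type and aspartyl protease genes 2 rose and 1 fell, with a median of 0.34. With the germline score as a covariate edgeR called 5 higher and 1 lower, and the median was 0.84. asp-4, a cathepsin D-like protease gene, had 4681, 2110, 4746, 5394 and 4055 CPM in the OE libraries, against 2496, 1489, 2247, 1529 and 2191 CPM in the gas-1 libraries. Only OE replicate 2 fell inside the gas-1 range (log2 1.08 ± 0.26, adjusted p = 0.046). asp-2 had 2108, 1110, 2183, 2488 and 1854 CPM in the OE libraries, against 1161, 587, 1030, 783 and 842 CPM in the gas-1 libraries, again with replicate 2 as the single OE library that overlapped (log2 1.15 ± 0.25, adjusted p = 0.0264). Both calls were lost in several alternatives, that for asp-4 in 15 of 26 and that for asp-2 in 7. asp-2 shares 74 exon bases with inx-10 on the opposite strand, which averaged 1.84 CPM in OE and 2.52 CPM in gas-1. The fall was asp-12, with 21.3, 13.5, 18.1, 29.3 and 24.9 CPM in the OE libraries, against 127, 87, 182, 98.3 and 77.1 CPM in the gas-1 libraries, and its groups were well apart (log2 -2.42 ± 0.38, adjusted p = 0.0034).

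Other lists on the lysosome and protein turnover held 1 call. edgeR called 0 of 21 V-ATPase subunits, with 4 at a p under 0.05 before adjustment, and 0 of 15 gut granule genes, with 1. DESeq2 called 1 V-ATPase gene lower, TPM in limma 2 lower and limma-voom 0, and all 3 called 0 gut granule genes. In autophagy 1 of 26 genes fell: lgg-1, whose product is the Atg8-type protein of the autophagosome membrane, had 35.6, 33.1, 28, 39.9 and 42.6 CPM in the OE libraries, against 78.1, 53.3, 65.1, 59.1 and 85.6 CPM in the gas-1 libraries. Its highest OE library stayed below its lowest gas-1 library (log2 -0.93 ± 0.17, adjusted p = 0.00724). Cytosolic ribosomal protein genes had 0 calls among 79, with 19 at a p under 0.05 before adjustment. All but 1 of them had a fold change below 0, with a median of -0.28. DESeq2 and limma-voom called 0 of them, and TPM in limma called 1 lower. The proteasome had 0 calls of 35 and a median of -0.20, with 4 at a p under 0.05 before adjustment, while DESeq2 and TPM in limma each called 1 lower and limma-voom 0. Of 20 genes of endoplasmic reticulum folding and stress edgeR called 0, with 7 at a p under 0.05 before adjustment. DESeq2 and TPM in limma each called 3 of these lower and limma-voom 0. Among 45 nutrient transporters edgeR called 0, with 5 at a p under 0.05 before adjustment, DESeq2 called 1 higher, and limma-voom and TPM in limma called 0.

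Lipid metabolism is the function that the series title names, and the lists on it held 3 called genes. The called share was 3.12% in triglyceride and phospholipid synthesis, 7.14% in lipid binding proteins and 2.63% in mitochondrial beta-oxidation and fatty acid activation. Each of these shares rests on 1 gene, the other lipid lists had 0%, and the share over all tested genes was 1.59%. dgat-2, a diacylglycerol acyltransferase gene of triglyceride synthesis, was the only call among 32 genes of triglyceride and phospholipid synthesis. It had 6.47, 2.38, 5.18, 6.36 and 5.26 CPM in the OE libraries, against 11.5, 11.2, 10.9, 11.9 and 15.7 CPM in the gas-1 libraries. The groups did not overlap (log2 -1.25 ± 0.27, adjusted p = 0.0268), and the call was lost in 8 of 26 alternatives. Among 14 lipid binding proteins the single fall was lbp-8, known as the carrier of a lysosomal lipid signal to the nucleus, with 14.6, 5.81, 11.3, 13.2 and 10.4 CPM in the OE libraries, against 31, 40.5, 38.2, 24.6 and 24.2 CPM in the gas-1 libraries and no overlap (log2 -1.52 ± 0.35, adjusted p = 0.0395). Its call was lost in 11 of 26 alternatives. acdh-13, of the acyl-CoA dehydrogenase family, was the single rise among 38 genes of mitochondrial beta-oxidation and fatty acid activation, with 58 ± 11 CPM in OE and 32.1 ± 9.56 CPM in gas-1 (log2 0.85 ± 0.20, adjusted p = 0.0453). Its groups overlapped and its call was lost in 18 of 26 alternatives.

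The other lipid lists had no call with edgeR. Fatty acid synthesis, desaturation and elongation had 0 of 20, and 0 at a p under 0.05 before adjustment. Its lowest p was that of the desaturase gene fat-7 (log2 0.80 ± 0.38, adjusted p = 0.314). Of 17 lipase and lipid droplet genes 6 had a p under 0.05 before adjustment, in both directions, and DESeq2 called 3 higher and 2 lower, limma-voom 1 lower and TPM in limma 1 higher and 2 lower. The lysosomal lipase genes lipl-5 (log2 1.09 ± 0.27, adjusted p = 0.0532) and lipl-2 (log2 1.21 ± 0.36, adjusted p = 0.104) and the fat lipase gene atgl-1 (log2 0.51 ± 0.15, adjusted p = 0.0943) had values above 0, and the lipase activator genes abhd-5.1 (log2 -1.19 ± 0.33, adjusted p = 0.0836) and abhd-5.2 (log2 -0.91 ± 0.29, adjusted p = 0.128) below 0. Peroxisomal beta-oxidation had 0 of 21, with 3 at a p under 0.05 before adjustment and 1 called lower by DESeq2 and by TPM in limma, and limma-voom called 0. Sphingolipid metabolism had 0 of 21, with 5 at that level, DESeq2 and limma-voom called 0, and TPM in limma called 1 higher and 1 lower. Regulators of lipid metabolism had 0 of 25, with 1 at that level, and propionate, vitamin B12 and methionine cycle genes had 0 of 23, with 2. The other tools called 0 in both of these lists and in fatty acid synthesis. All these counts cover listed genes only. The glucocerebrosidase gene gba-2, which the sphingolipid list does not hold, was called lower and is given with the other observations.

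Yolk protein genes, which carry lipid to the oocytes and dominate these libraries, had 0 calls of 6, with 1 at a p under 0.05 before adjustment. All 6 fold changes were above 0, with a median of 0.42. vit-6 had 147400 ± 61620 CPM in OE and 96090 ± 24440 CPM in gas-1 (log2 0.62 ± 0.32, adjusted p = 0.37) and vit-2 had 118100 ± 48340 CPM in OE and 88450 ± 23140 CPM in gas-1 (log2 0.42 ± 0.32, adjusted p = 0.575). DESeq2, limma-voom and TPM in limma called 0 of the 6. Outside the cest-2 subfamily, 1 of 25 carboxylesterase genes fell: cest-35.2 had 0.841, 0.523, 0.754, 2.04 and 1.1 CPM in the OE libraries, against 8.14, 7.04, 7.43, 12 and 22.1 CPM in the gas-1 libraries (log2 -3.43 ± 0.77, adjusted p = 0.0342). The median of these 25 was -0.33, and 9 were above 0. DESeq2 called 1 higher and 4 lower, and with the germline score as a covariate the median was 0.20. The call for cest-35.2 was lost in 10 of 26 alternatives.

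The respiratory chain, in which the gas-1 product works, held no called gene. Of 35 complex I genes other than gas-1 edgeR called 0, with 2 at a p under 0.05 before adjustment, and the median was -0.03. Of 37 nuclear genes of complexes II to V it called 0, with 4, and the median was -0.11. The 12 genes of the mitochondrial genome had 0 calls, with 2 at a p under 0.05 before adjustment and a median of 0.33, and the mitochondrial genome took 1.25% to 2.03% of counts in OE and 0.996% to 1.49% in gas-1. DESeq2 and TPM in limma each called 1 complex I gene lower and 0 in the other 2 lists, and limma-voom called 0 in all 3. Mitochondrial ribosomal proteins had 0 calls of 67, with 3 at a p under 0.05 before adjustment and 0 by the other 3 tools. The tricarboxylic acid and glyoxylate cycles had 0 of 24, with 1 at that level, while DESeq2, limma-voom and TPM in limma each called 1 lower. Of 19 genes of the mitochondrial stress response 0 were called, with 4 at a p under 0.05 before adjustment and 1 called higher by DESeq2, and limma-voom and TPM in limma called 0. The chaperone genes hsp-6 (log2 0.26 ± 0.18, adjusted p = 0.536) and hsp-60 (log2 0.32 ± 0.15, adjusted p = 0.308), which report this response, did not pass the threshold.

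adh-1, an alcohol dehydrogenase gene, was the single call among 25 genes of glycolysis and alcohol metabolism. It had 484, 328, 588, 1081 and 651 CPM in the OE libraries, against 29.5, 27.6, 93.7, 83.7 and 155 CPM in the gas-1 libraries. The lowest OE library exceeded the highest gas-1 library by more than 2-fold, with OE replicate 4 the highest of all (log2 3.01 ± 0.54, adjusted p = 0.00724). Wild type libraries averaged 144 ± 102 CPM. lea-1, a gene of the late embryogenesis abundant type that protects against drying, had 460, 510.1, 529.7, 376 and 263 CPM in the OE libraries, against 89.8, 135, 118.6, 105 and 189 CPM in the gas-1 libraries. The order of the OE libraries differed from that of adh-1, and the groups were apart (log2 1.75 ± 0.26, adjusted p = 0.00243). Both belong to a list of 20 genes that respond to DAF-16, the transcription factor of the insulin pathway, or to heat shock, in which 2 rose, 0 fell and the median was -0.28. lea-1 shares 19 exon bases with acl-2 on the opposite strand.

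Cytochrome P450s, which oxidise foreign compounds and lipids, had 2 falls among 59 tested genes and a median of -0.48. cyp-13A5 had 90.2, 66, 109.9, 203 and 81.3 CPM in the OE libraries, against 662, 535, 696, 321 and 434 CPM in the gas-1 libraries, without overlap (log2 -2.27 ± 0.54, adjusted p = 0.0457), and its call was lost in 11 of 26 alternatives. cyp-33E2 had 15.9 ± 3.91 CPM in OE and 37.1 ± 8.83 CPM in gas-1 (log2 -1.23 ± 0.25, adjusted p = 0.0214), and its call was lost in 5. UDP-glucuronosyltransferases, which attach sugars to such compounds, had 3 falls among 54 and a median of -0.20. ugt-27 had 0, 0, 0.565, 0 and 0 CPM in the OE libraries, against 8.56, 2.43, 8.01, 8.35 and 16 CPM in the gas-1 libraries. It was read in a single OE library and in every gas-1 library (adjusted p = 0.00557). ugt-16 had 13.8 ± 7.83 CPM in OE and 53.1 ± 15.3 CPM in gas-1 (log2 -1.95 ± 0.41, adjusted p = 0.0228) and ugt-41 had 7.37 ± 4.58 CPM in OE and 30.6 ± 13.4 CPM in gas-1 (log2 -2.08 ± 0.42, adjusted p = 0.0189). The calls for ugt-16 and ugt-41 were lost in 7 and 5 of 26 alternatives. With the germline score as a covariate edgeR called 1 cytochrome P450 higher and 0 lower, with a median of 0.03, and 2 UDP-glucuronosyltransferases higher and 1 lower, with a median of 0.25. For cytochrome P450s DESeq2 called 2 higher and 6 lower, limma-voom 0 and 4, and TPM in limma 0 and 8. For UDP-glucuronosyltransferases these counts were 1 and 6, 0 and 4, and 0 and 7. dhs-23 was the 1 fall among 28 short-chain dehydrogenases, with 3.79 ± 1.41 CPM in OE and 21.2 ± 12.1 CPM in gas-1 (log2 -2.47 ± 0.38, adjusted p = 0.00249). Glutathione S-transferases had 0 calls of 28 with edgeR, 8 at a p under 0.05 before adjustment, and 3 called lower by DESeq2, 2 by TPM in limma and 0 by limma-voom.

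ABC transporters, which pump compounds across membranes, had 1 rise and 2 falls among 36. mrp-7, of the multidrug resistance protein branch, had 149 ± 15.7 CPM in OE and 87.2 ± 22.8 CPM in gas-1 (log2 0.77 ± 0.17, adjusted p = 0.0323), and its call was lost in 15 of 26 alternatives. The P-glycoprotein genes pgp-6 and pgp-8 lie within 20 kb of each other on chromosome X. pgp-6 had 7.7, 1.63, 7.25, 6.36 and 6.61 CPM in the OE libraries, against 25.8, 34.8, 22.6, 13.5 and 77.9 CPM in the gas-1 libraries (log2 -2.56 ± 0.49, adjusted p = 0.0125). pgp-8 had 0.354 ± 0.334 CPM in OE and 7.34 ± 3.22 CPM in gas-1 (log2 -4.31 ± 0.84, adjusted p = 0.0138). Metal response genes had 3 falls of 28 and a median of -0.45. mtl-2, one of the metallothioneins that bind zinc and cadmium, had 453, 171, 373, 401 and 496 CPM in the OE libraries, against 1072, 744, 912, 851 and 790.4 CPM in the gas-1 libraries. The highest OE library was below the lowest gas-1 library (log2 -1.21 ± 0.27, adjusted p = 0.0318), the call was lost in 7 of 26 alternatives, and wild type libraries averaged 371 ± 129 CPM. cdr-4, whose family takes its name from cadmium, had 30.3 ± 7.63 CPM in OE and 94.4 ± 56 CPM in gas-1 (log2 -1.64 ± 0.34, adjusted p = 0.0236), and its call was lost in 6. zipt-2.3, a zinc transporter gene of the ZIP family, had 6.47, 2.33, 7.82, 11.3 and 6.8 CPM in the OE libraries, against 38.5, 27.7, 36, 25.2 and 29.8 CPM in the gas-1 libraries and no overlap (log2 -2.18 ± 0.35, adjusted p = 0.00359). With the germline score as a covariate 1 of the 28 metal response genes was called lower, zipt-2.3, and the median was -0.08. DESeq2 and limma-voom each called 4 metal response genes lower and TPM in limma 6, with 0 higher. msra-1, the methionine sulfoxide reductase gene that repairs oxidised protein, was the 1 fall among 29 redox genes. It had 153, 83.8, 177, 168 and 110.3 CPM in the OE libraries, against 505, 293, 455, 301 and 313 CPM in the gas-1 libraries, with all OE values below all gas-1 values (log2 -1.43 ± 0.24, adjusted p = 0.00495).

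zip-11, a bZIP transcription factor gene, fell. It had 5.75, 7.56, 3.58, 3.82 and 2.32 CPM in the OE libraries, against 23.8, 23, 32.7, 25 and 30.4 CPM in the gas-1 libraries. The gas-1 values were close to each other and all well above the OE values (log2 -2.55 ± 0.30, adjusted p = 0.000215), and wild type libraries averaged 2.77 ± 0.714 CPM. It was the 1 call of 21 bZIP genes, of which 3 had a fold change above 0 and whose median was -0.46. Nuclear hormone receptor genes had a median of -0.37 and, with the germline score as a covariate, 0.17. nhr-44 was the 1 fall of 164 such genes (0.61% called, against 1.59% over all). It had 2 ± 1.68 CPM in OE and 15.5 ± 5.56 CPM in gas-1 (log2 -2.94 ± 0.70, adjusted p = 0.0457). Its call was lost in 13 of 26 alternatives, and it shares 58 exon bases with ttc-17 on the opposite strand. Insulin-like peptides and insulin-receptor-like genes had 2 rises of 10, irld-53 and irld-35, which are described with chromosome V. Histone genes had 3 falls of 36 and a median of -0.60. They were his-12, which encodes a histone H2A, with 5.11, 2.27, 5.84, 2.29 and 4.46 CPM in the OE libraries, against 15.9, 21.5, 15.9, 13.9 and 27.5 CPM in the gas-1 libraries (log2 -2.25 ± 0.45, adjusted p = 0.0166), and the H2B genes his-11 (log2 -1.32 ± 0.26, adjusted p = 0.017) and his-41 (log2 -0.84 ± 0.20, adjusted p = 0.0457). The call for his-41 was lost in 19 of 26 alternatives, and the gene shares 173 exon bases with C50F4.6 on the same strand. With the germline score as a covariate edgeR called 0 histone genes, and their median was -0.93. DESeq2 and TPM in limma each called 8 histone genes lower and limma-voom 3, with 0 higher. Of 45 tested collagen genes 1 fell: col-96 had a single OE library above 0, at 0.0581 CPM, against 1.84, 3.92, 5.17, 0.968 and 1.16 CPM in the gas-1 libraries. Its call was lost in 12 of 26 alternatives. DESeq2 called 1 collagen gene higher and 3 lower, while limma-voom, TPM in limma and the germline covariate called 0 lower. The collagen genes had a median of -1.05, and 11 of the 45 had a fold change above 0. The hypodermal markers, a tissue that makes collagen, had 0 calls of 8, with 2 at a p under 0.05 before adjustment and a median of -0.89, and the part of that tissue in the col-96 result was not tested.

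**Figure D3:**
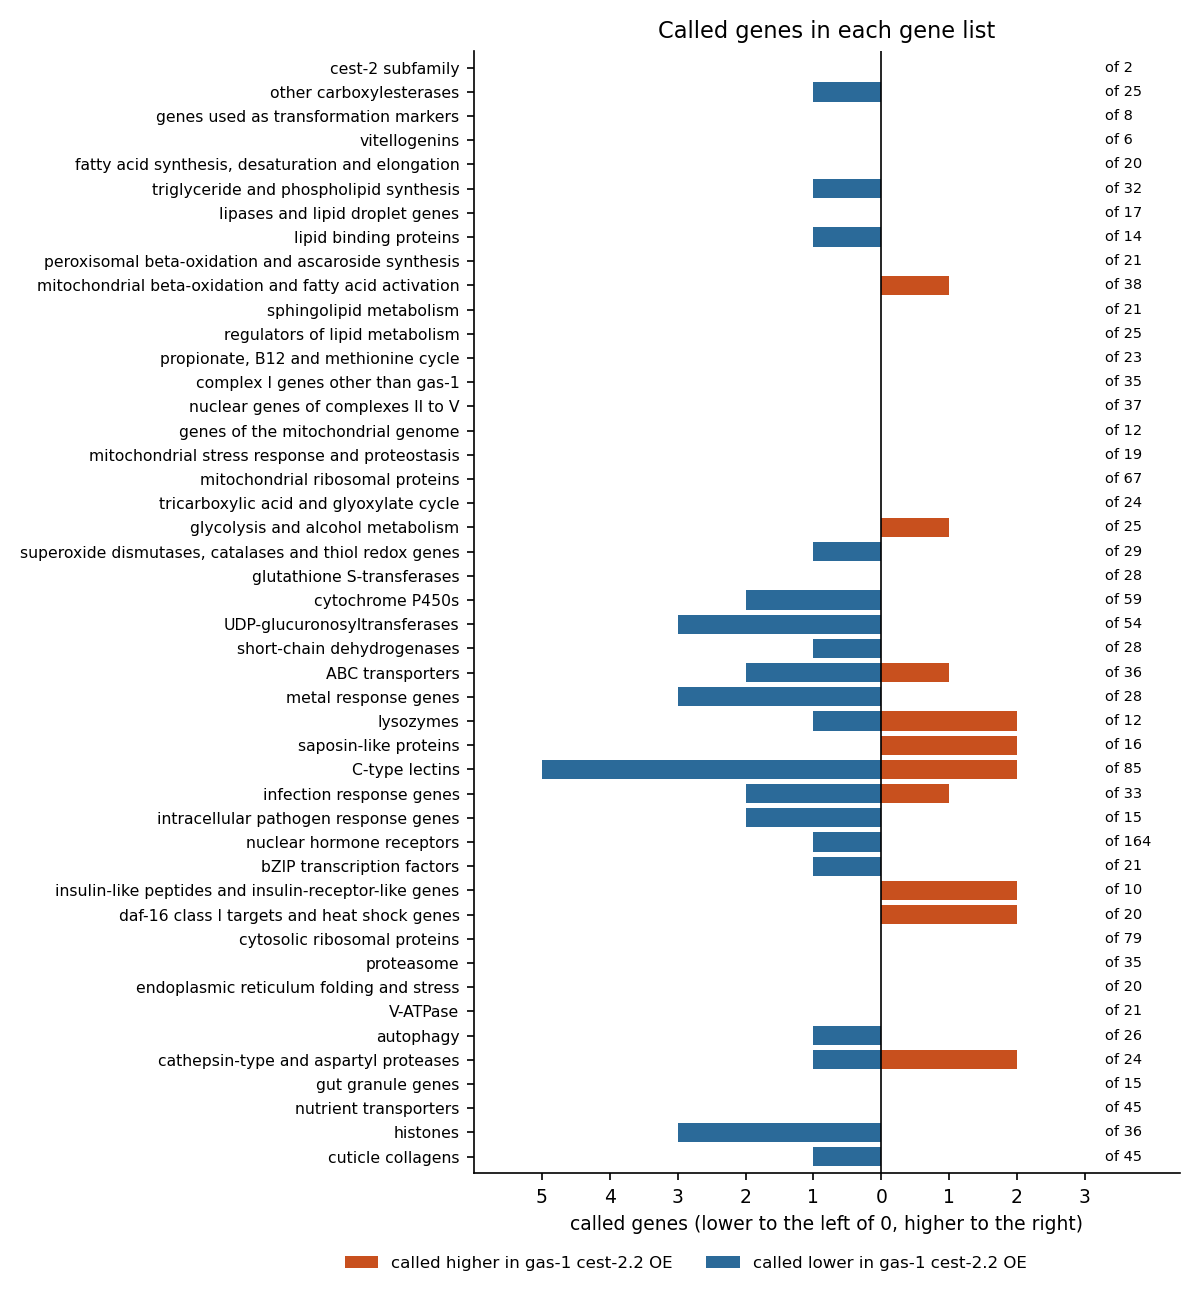
Number of genes called higher (bars to the right, orange) and lower (bars to the left, blue) in gas-1 cest-2.2 OE than in gas-1, for each gene list with the number of its tested members at the right edge. No list exceeds 2 rises, which 6 lists reach, among them lysozymes and proteases, and C-type lectins reach 5 falls, and the lists on the respiratory chain and the mitochondrial genome hold none.

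Of the 168 called genes, 48 belonged to at least 1 list and 120 to none. Among genes that reach a mean log2 CPM of 3 and whose groups do not overlap, the largest rises outside the lists, apart from those of a chromosome V stretch given further on, were genes named only by their clone. Y32B12B.4 had 43.5, 41.7, 44.2, 43.5 and 46.6 CPM in the OE libraries, against 7.92, 13.8, 5.24, 7.79 and 8.86 CPM in the gas-1 libraries. The OE libraries were nearly equal and at least 3-fold above each gas-1 library (log2 2.33 ± 0.21, adjusted p = 1.20e-05). Y50D4A.4 had 18.4, 16.9, 26.5, 14.5 and 14.9 CPM in the OE libraries, against 2.05, 6.79, 2.4, 2.24 and 5.05 CPM in the gas-1 libraries (log2 2.296 ± 0.33, adjusted p = 0.00176), and it shares 12 exon bases with wrb-1 on the opposite strand. F57C9.4 had 33.7, 53.5, 35.3, 28.8 and 43.5 CPM in the OE libraries, against 8.21, 15.8, 15.4, 16.14 and 4.8 CPM in the gas-1 libraries, with OE replicate 2 the highest (log2 1.69 ± 0.28, adjusted p = 0.00504). These 3 genes averaged 33.1 ± 3.1 CPM, 19.6 ± 4.59 CPM and 57 ± 8.32 CPM in wild type, which like the OE values lie above the gas-1 values. C14E2.12, annotated as a small nucleolar RNA, had 6.45 ± 0.643 CPM in OE and 1.96 ± 0.677 CPM in gas-1 (log2 1.71 ± 0.32, adjusted p = 0.00891) and 16.6 ± 6.5 CPM in wild type. F42A10.6, which shares 35 exon bases with abcf-3 on the opposite strand, had 44.8 ± 11.6 CPM in OE and 14.5 ± 4.73 CPM in gas-1 (log2 1.62 ± 0.31, adjusted p = 0.0131), and M28.10 had 31.7 ± 14.1 CPM in OE and 10.8 ± 2.64 CPM in gas-1 (log2 1.56 ± 0.32, adjusted p = 0.0195). The calls for C14E2.12, F57C9.4 and M28.10 were lost in 2, 1 and 3 of 26 alternatives, and the other 3 were called in all.

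Among the largest falls outside the lists, Y49E10.16 had the smallest adjusted p. It had 4.79, 2.56, 3.2, 3.39 and 10.6 CPM in the OE libraries, against 102, 51.9, 100.4, 80.6 and 93.8 CPM in the gas-1 libraries. The highest OE library, replicate 5, was still far below the lowest gas-1 library (log2 -4.09 ± 0.38, adjusted p = 1.82e-05), and wild type libraries averaged 68.7 ± 21.2 CPM. K02E2.6 had 6.98, 2.09, 3.58, 9.84 and 5.68 CPM in the OE libraries, against 19.5, 22.7, 28.5, 23 and 60.1 CPM in the gas-1 libraries, with gas-1 replicate 5 far above its group (log2 -2.45 ± 0.43, adjusted p = 0.00648). F21C10.9 had 40.1, 12.1, 49.4, 41.6 and 34.8 CPM in the OE libraries, against a lowest value of 112, a median of 151.9 and a highest of 365 CPM in the gas-1 libraries, again with gas-1 replicate 5 the highest (log2 -2.37 ± 0.57, adjusted p = 0.0459), and its call was lost in 12 of 26 alternatives. oac-32, of a family of O-acyltransferase homologues, had 12.4, 3.6, 3.11, 10.4 and 5.71 CPM in the OE libraries, against 14.8, 21.6, 52.7, 34.8 and 35.7 CPM in the gas-1 libraries (log2 -2.18 ± 0.50, adjusted p = 0.0367), and its call was lost in 9. In wild type these genes averaged 3.3 ± 1.34 CPM for K02E2.6, 18.6 ± 20.7 CPM for F21C10.9 and 8.24 ± 4.07 CPM for oac-32. The gas-1 values stand in both the comparison with OE and any comparison with wild type, so the 2 are not independent.

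**Figure D4:**
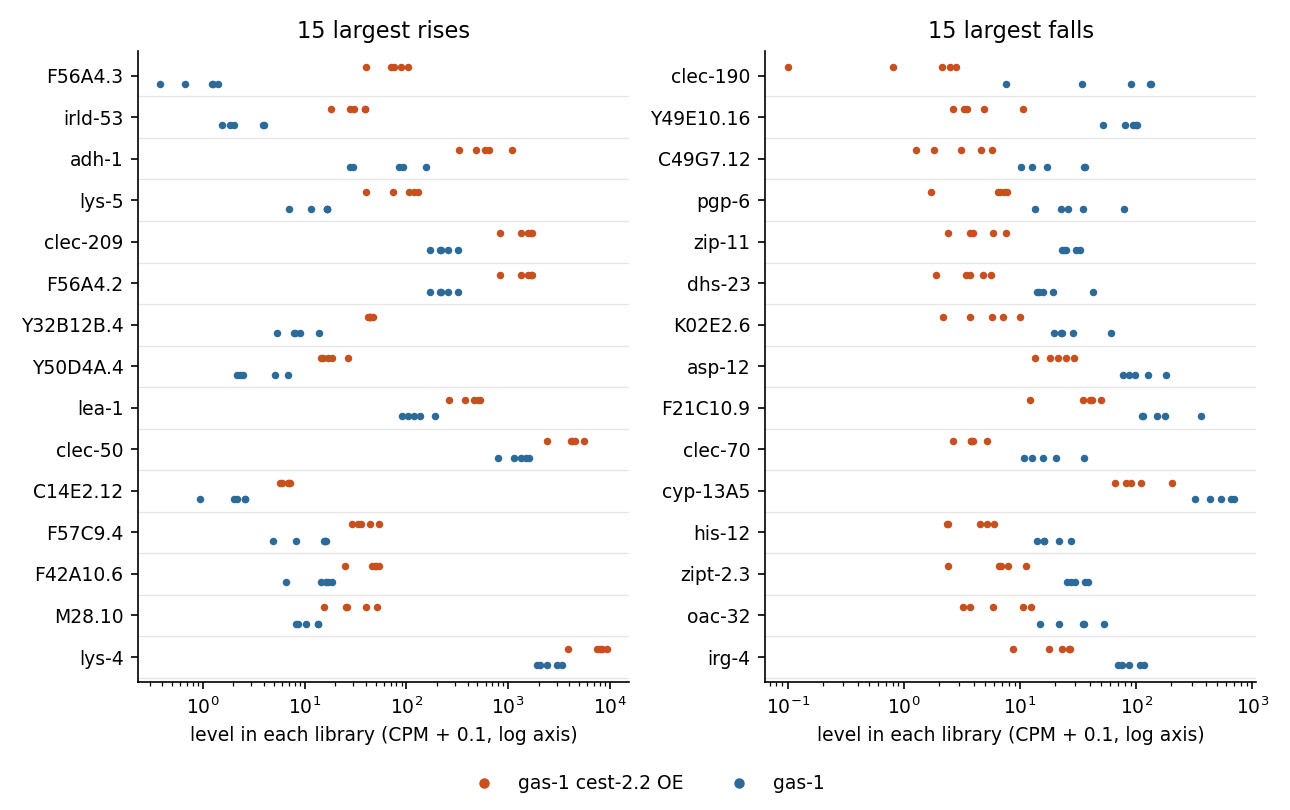
Level in each library (CPM + 0.1, log axis) of the 15 largest rises (left) and the 15 largest falls (right) among called genes that reach a mean log2 CPM of 3 without overlap, orange for gas-1 cest-2.2 OE and blue for gas-1. The mean gap is widest in F56A4.3 on the left (log2 6.41) and in clec-190 on the right (log2 -5.58), and in none of the 30 genes do the groups overlap.

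The share of tested genes that were called differed between chromosomes, with no test made. Chromosome V held 54 of them among 2012 tested genes, which is 2.68%, with 18 rises and 36 falls, and chromosome IV 2.22%. The shares were 1.58% on II, 1.05% on X, 0.99% on III and 0.82% on I, against 1.59% over all. Some called genes lay near each other: 33 of them formed 14 groups called in the same direction, 7 of the groups on V. How many such groups an equal number of other tested genes would form was not tested. Within a group, the gap from the end of a called gene to the start of the next was at most 20 kb. Some groups are copies of each other, whose reads the counting may have divided: 9 called genes fall into 4 sets with equal counts in every library, which leaves 163 distinct profiles among the 168. The F-box genes fbxc-1 and fbxc-5 form such a set, as do fbxc-2, fbxc-3 and fbxc-4. fbxc-1 and fbxc-5 had 4.88 ± 2.62 CPM in OE and 15.7 ± 4.33 CPM in gas-1 each (log2 -1.69 ± 0.36, adjusted p = 0.0259), with the call lost in 7 of 26 alternatives, and each of the other 3 had 6.23 ± 1.31 CPM in OE and 19.1 ± 3.77 CPM in gas-1 (log2 -1.62 ± 0.23, adjusted p = 0.0011).

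A stretch of chromosome V from 2345676 to 2502426 (WBcel235) held 9 rises and 0 falls among 18 tested genes. It was singled out after its values were seen, and it holds copies of genes whose counts are equal in every library and which are counted separately. Over all tested genes 0.633% were called higher. Because the stretch begins and ends with a called gene, its share of rises cannot be compared with that value. F56A4.3 was the largest of the called rises at a mean log2 CPM of at least 3. It had 75.2, 40.1, 105, 88.8 and 71.4 CPM in the OE libraries, against 0.283, 0.561, 1.31, 1.12 and 1.16 CPM in the gas-1 libraries. The transcript was almost missing from gas-1 and present in every OE library (log2 6.41 ± 0.38, adjusted p = 1.06e-07). Wild type libraries averaged 56 ± 16 CPM. srbc-15, annotated as a pseudogene and named for a chemoreceptor class, had 10.7, 3.9, 11.8, 10.2 and 9.27 CPM in the OE libraries and no count in any gas-1 library. Against a floor of 3 counts over the gas-1 group it was at least 231-fold higher in OE (adjusted p = 1.01e-05), and wild type libraries averaged 6.66 ± 1.95 CPM.

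irld-53, a gene with an insulin and EGF receptor L domain, lies beside srbc-15 and had 30.3, 18.1, 39.1, 39.1 and 27.6 CPM in the OE libraries, against 1.91, 1.75, 1.46, 3.92 and 3.81 CPM in the gas-1 libraries (log2 3.58 ± 0.34, adjusted p = 2.00e-05). Its relative irld-35 had 4.91, 3.31, 5.65, 9.75 and 4.49 CPM in the OE libraries, against 0.424, 0.436, 1.46, 1.43 and 1.41 CPM in the gas-1 libraries (log2 2.44 ± 0.48, adjusted p = 0.0146). Both pairs of groups were apart in every library. The lectin gene clec-209 and its copy F56A4.2 had equal counts in all libraries, 1685, 834, 1586, 1715 and 1345 CPM in the OE libraries, against 324, 169, 258, 219.5 and 216 CPM in the gas-1 libraries for each (log2 2.59 ± 0.25, adjusted p = 2.31e-05). Wild type libraries averaged 1313 ± 378 CPM. mct-2, of the monocarboxylate transporter family, had 6.31 ± 2.29 CPM in OE and 1.63 ± 0.988 CPM in gas-1 (log2 1.94 ± 0.46, adjusted p = 0.0457), and its call was lost in 18 of 26 alternatives. The equal-count copies C01B4.6 and Y19D10A.16 had 15.7 ± 3.75 CPM in OE and 6.33 ± 1.57 CPM in gas-1 each (log2 1.31 ± 0.23, adjusted p = 0.0063). The 9 tested genes there that were not called included F56A4.5, the 1 gene of the stretch with a fold change below 0, with 3.25 ± 1.35 CPM in OE and 14.6 ± 8.15 CPM in gas-1 (log2 -2.18 ± 0.77, adjusted p = 0.172). Fold changes of the other 8 were above 0, and they averaged at most 4.93 CPM in OE and at most 1.76 CPM in gas-1.

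**Figure D5:**
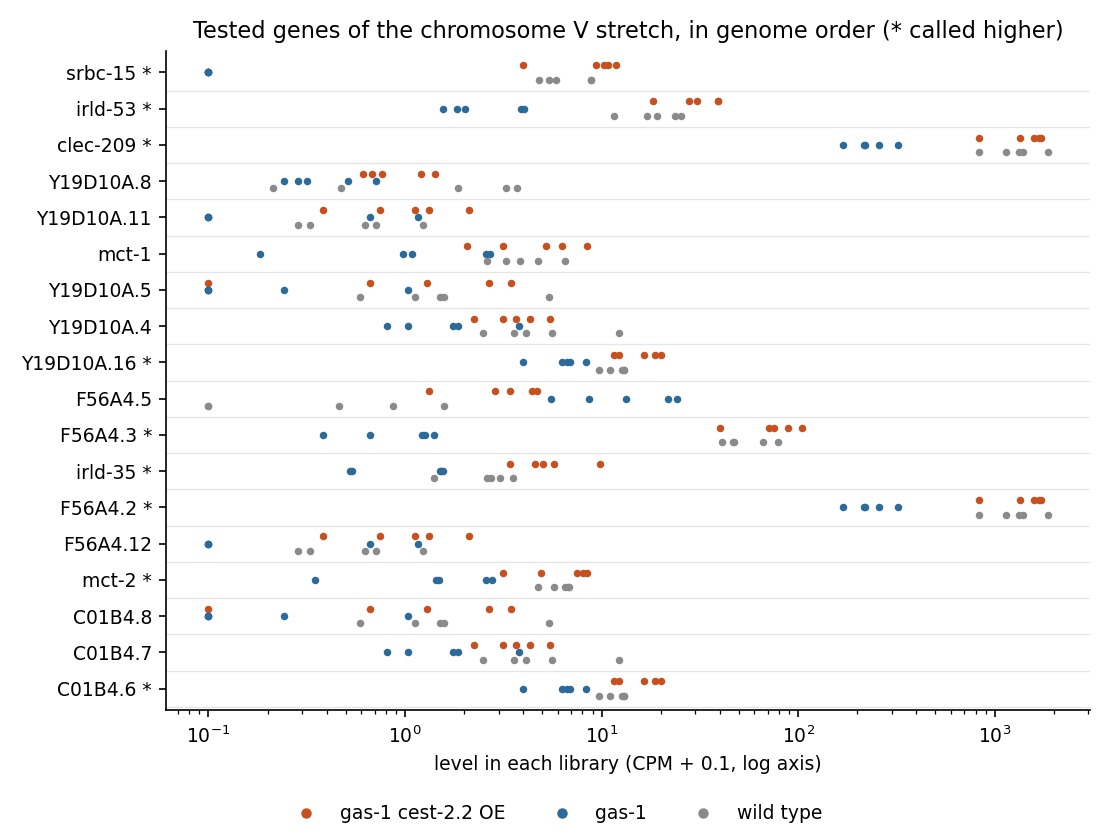
Level in each library (CPM + 0.1, log axis) of the 18 tested genes of the chromosome V stretch in genome order, orange for gas-1 cest-2.2 OE, blue for gas-1 and grey for wild type, and an asterisk marks the 9 genes called higher in OE than in gas-1. In those 9 the orange points lie apart from the blue ones and above them, and in F56A4.5 the orange points lie below the blue ones.

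The remaining neighbour groups were small. On chromosome V, C49G7.12 had 5.69, 1.16, 3.02, 4.5 and 1.72 CPM in the OE libraries, against 35.9, 16.9, 35.5, 10.2 and 12.59 CPM in the gas-1 libraries (log2 -2.80 ± 0.47, adjusted p = 0.00521), and C49G7.10 beside it had 12.1 ± 2.64 CPM in OE and 37.2 ± 18.4 CPM in gas-1 (log2 -1.61 ± 0.35, adjusted p = 0.0295). The groups of C49G7.10 overlapped, and its call was lost in 10 of 26 alternatives. F44E7.5 had 22.5, 50.5, 26.1, 21.5 and 27.5 CPM in the OE libraries, against 102, 145, 108, 136 and 141.7 CPM in the gas-1 libraries, with OE replicate 2 the highest OE library and still below all gas-1 libraries (log2 -2.09 ± 0.22, adjusted p = 4.62e-05). C53A3.4, in the same stretch, had 2.71 ± 1.1 CPM in OE and 15.2 ± 4.86 CPM in gas-1 (log2 -2.48 ± 0.37, adjusted p = 0.00243). F53H2.1, beside K02E2.6, had no count in any OE library and 5.38, 2.56, 4.81, 5.45 and 6.21 CPM in the gas-1 libraries, at least 155-fold lower in OE against a floor of 3 counts over the OE group (adjusted p = 0.00109). T08G5.1, beside mtl-2, had 0.282 ± 0.248 CPM in OE and 4.14 ± 1.85 CPM in gas-1 (log2 -3.85 ± 0.87, adjusted p = 0.0349), and its call was lost in 10 of 25 alternatives. On chromosome IV, M199.9, beside clec-190, had 0.0415 ± 0.0654 CPM in OE and 17.1 ± 12.5 CPM in gas-1 (log2 -7.96 ± 0.90, adjusted p = 0.000135). spp-10 and acdh-13 also lie within 20 kb of each other there, as do lys-4 and lys-5.

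Dissection can carry other tissues along, and their markers were read in the same libraries. The summed level of 30 germline markers was 3213, 4364, 2854, 2761 and 2952 CPM in OE, against 1798, 3292, 2096, 2447 and 1911 CPM in gas-1. The groups overlapped, with replicate 2 the highest library of each, and wild type libraries held 3248 to 3921 CPM. edgeR called 0 of the 30 germline markers, but 27 had a fold change above 0 and 16 had a p under 0.05 before adjustment. Their median log2 fold change was 0.43, against 0.03 over all tested genes. Among the most abundant of them, glh-1, a P granule helicase gene, had 422 ± 90.5 CPM in OE and 253 ± 127 CPM in gas-1 (log2 0.74 ± 0.26, adjusted p = 0.171), and wago-1, an Argonaute gene, had 379.7 ± 94.6 CPM in OE and 269 ± 63.8 CPM in gas-1 (log2 0.50 ± 0.19, adjusted p = 0.218). The 22 oocyte markers summed to 5579 to 10090 CPM in OE and to 3938 to 6633 CPM in gas-1, with 0 called and 4 at a p under 0.05 before adjustment. The yolk receptor gene rme-2, which marks oocytes, had 1010 ± 271 CPM in OE and 657 ± 188 CPM in gas-1 (log2 0.62 ± 0.21, adjusted p = 0.149).

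The pharynx markers summed to 34.1 to 317 CPM in OE and to 5.54 to 122.3 CPM in gas-1, and overlapped. All 9 that were tested had a fold change above 0, with a median of 1.46, but edgeR called 0, with 1 at a p under 0.05 before adjustment. Their leading genes were myosins: myo-2 had 51.8 ± 51.7 CPM in OE and 13.9 ± 19.9 CPM in gas-1, and myo-1 had 48.3 ± 42.5 CPM in OE and 13.3 ± 18.5 CPM in gas-1. Body wall muscle markers summed to 208 to 632 CPM in OE and 324 to 534 CPM in gas-1, and hypodermal markers to 72.3 to 133 CPM in OE and 81.3 to 172 CPM in gas-1. Sperm markers were near 0, at 3.14 to 8.43 CPM in OE and 5.38 to 17.8 CPM in gas-1, and 18 of their 45 members, mostly major sperm protein genes, had no count in any of the 10 libraries. Neuronal markers summed to 63.3 to 136 CPM in OE and 72.8 to 129 CPM in gas-1. Somatic gonad markers summed to 487 to 633 CPM in OE and 327 to 641 CPM in gas-1, and coelomocyte markers to 108 to 171 CPM in OE and 98.4 to 159 CPM in gas-1. The intestinal markers stood far above all of these, at 134600 to 450900 CPM in OE and 159700 to 274100 CPM in gas-1, chiefly through the yolk protein genes vit-6 and vit-2, and 1 of the 23 tested, mtl-2, fell. Beyond a fit that takes the germline marker score as a covariate, the part of RNA from other tissues in the results was not tested. In whole-tissue RNA, fewer cells of a type and less RNA per cell cannot be told apart.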

How the data were processed

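RNA from 20 dissected intestines per library was converted by Smart-seq2 without strand information, per the labels' protocols. The submitters' processing notes name bcl2fastq 2.20, kallisto 0.44.0 and the build WBcel235. The authors deposited, for each library and transcript, kallisto's estimated counts, TPM and transcript lengths. The deposited table of the authors' own comparisons was not used here.

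Each numeric target was read as a line of the deposited transcript list, counted from 0. The annotation (Ensembl, WBcel235) gave positions for 46817 of 46904 genes, and lengths fitted 99.96% of 27233 non-coding transcripts, against 53.05% when the list was moved by 1 line. Estimated counts were summed per gene and rounded. No 2 of the 105 pairs of libraries were identical. Genes were filtered with filterByExpr (minimum count 10), scaled by TMM and tested with edgeR 4.0.16 (R 4.3.3), quasi-likelihood F test, over all 15 libraries with group as the only term (12 residual degrees of freedom). p-values were adjusted over 10585 genes by Benjamini-Hochberg, and a gene was called under 0.05. The standard error is the log2 fold change divided by the square root of F. Exact two-sided permutation tests used log2(CPM + 0.5).

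Named genes were gas-1 and the cest-2 genes; the 15 largest called rises and 15 largest called falls at a mean log2 CPM of at least 3 without overlap; the 6 called genes with the highest mean CPM; up to 3 called genes per list; called neighbours within 20 kb; genes within 20 kb of cest-2.2; and 2 genes per marker list. The members, lists and tests were chosen with earlier results of these data known. Alternatives were DESeq2 1.42.0, limma 3.58.1 (voom, and log2(TPM + 1)), no filter or a minimum count of 50, other scalings, the 10 libraries alone, a replicate block, a germline marker covariate and each library left out. The fits were tested on simulated data. Deviations of OE and gas-1 libraries with the same number correlated at -0.039, 0.272, 0.062, -0.018 and -0.028, so the numbers were not taken to pair the libraries. Tables and permutation tests used pandas 2.3.3 and scipy 1.17.1.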

Additional observations from a re-analysis of the deposited data

Results flagged for a closer look

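In 13 of 200 groups of 5 libraries, a single library lay far from the other 4 by Dixon's criterion for the gap over the range. The criterion flags about 1 in 20 groups of unselected, normally distributed values. The groups here hold CPM values of genes mostly chosen from these same data, so the count cannot be compared with that rate. For ugt-27 and col-96 the criterion is met by any single count, since the other 4 libraries are at 0, so their flags carry no weight. Of the 13, 6 fell on gas-1 replicate 5, the library that stood apart in the principal component analysis. It was the highest gas-1 library for dhs-23 at 42.4 CPM (the others 13.9 to 19.2), K02E2.6 at 60.1 CPM (19.5 to 28.5), F21C10.9 at 365 CPM (112 to 176), dgat-2 at 15.7 CPM (10.9 to 11.9), cup-5 at 75.7 CPM (40.4 to 47.96) and mtm-6 at 53.6 CPM (27.02 to 33.6). cup-5 and mtm-6 are coelomocyte markers. The calls for dhs-23 and K02E2.6 held in every alternative, those without gas-1 replicate 5 included.

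Another 4 fell on OE replicate 2. It was the lowest OE library for F42A10.6 at 24.7 CPM (45.8 to 54.2) and pgp-6 at 1.63 CPM (6.36 to 7.70), and the highest for F44E7.5 at 50.5 CPM (21.5 to 27.5) and col-96 at 0.0581 CPM, where the other 4 were at 0. OE replicate 3 was the highest for ugt-27 at 0.565 CPM, where the other 4 were at 0, and for col-19, a hypodermal marker, at 80.5 CPM (11.5 to 24.1). OE replicate 5 was the highest for Y49E10.16 at 10.6 CPM (2.56 to 4.79).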

How the results depend on the processing

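Against 67 rises and 101 falls, the DESeq2 Wald test called 235 and 322, of which 67 and 100 were among them. A fit to the 10 libraries alone called 37 rises and 106 falls. With the germline marker score as a covariate the counts were 98 and 39, and with TPM in limma 51 and 291, a setting that shifts the median of all genes by -0.126 on the log2 scale. Rises were 71.5% and 14.9% of the calls in these 2 settings, 25.9% with the 10 libraries alone and 39.9% as reported. Left out one at a time, the 15 libraries gave 30 to 226 rises and 54 to 154 falls: without gas-1 replicate 2 the counts were 226 and 154, and without gas-1 replicate 3 they were 34 and 54. Without both libraries numbered 2, an alternative chosen after seeing the data, they were 105 and 66, or 61.4% rises. DESeq2 size factors (62 and 124), limma-voom (79 and 136), no filter (52 and 92), a minimum count of 50 (72 and 118) and leaving out yolk and mitochondrial genes (64 and 124) kept the counts within 1.5 times. The cause of these shifts was not tested. The fit with the replicate number as a block called 47 rises, 32 of them among the 67, and 74 of the 101 falls, and 2 libraries correlated best with the partner of their own number.

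cest-2.2 was above 0 in every alternative and passed the threshold with the DESeq2 Wald test (log2 1.08, adjusted p = 0.0450) and with TPM in limma (log2 0.97, adjusted p = 0.0499). Left out one at a time, libraries moved it between log2 0.91 and 1.37. Of 72 named called genes, 33 kept their call in every alternative, 29 lost it with the germline covariate, 14 with the block and 0 with DESeq2, and none turned its direction. M28.10, his-12 and his-11 lost it in 3 alternatives each, C14E2.12 in 2, and F57C9.4, clec-190, pgp-6, clec-70, pgp-8, pals-24, lgg-1, C01B4.6 and M199.9 in 1. The gas-1 level stayed between -0.18 and 0.34 on the log2 scale and was not called in any alternative.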

Other observations

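These called genes belong to no list and were chosen after their values were seen. The alternatives were fitted to all genes, but their results were read gene by gene only for named genes and not for these. polg-1, which encodes the polymerase that copies mitochondrial DNA, had 34, 33.8, 24.8, 22.4 and 26.6 CPM in the OE libraries, against 12, 12.2, 15.7, 17.6 and 6.54 CPM in the gas-1 libraries, without overlap (log2 1.15 ± 0.24, adjusted p = 0.0223). gcn-2, the kinase gene of the amino acid starvation response, had 58.6 ± 9.13 CPM in OE and 35.5 ± 7.19 CPM in gas-1 (log2 0.72 ± 0.17, adjusted p = 0.0457), and tcer-1, a transcription elongation gene known from long-lived worms without a germline, had 60 ± 4.66 CPM in OE and 33.7 ± 7.62 CPM in gas-1 (log2 0.83 ± 0.17, adjusted p = 0.0228). ced-1, the engulfment receptor gene, had 93.5 ± 12.59 CPM in OE and 54.2 ± 13.5 CPM in gas-1 (log2 0.78 ± 0.17, adjusted p = 0.0295). xpc-1, of the DNA damage recognition factors, had 57.6, 61, 54.8, 48.9 and 51.5 CPM in the OE libraries, against 21.4, 24.1, 24.5, 18.9 and 5.63 CPM in the gas-1 libraries (log2 1.53 ± 0.27, adjusted p = 0.0059). These levels stand beside germline marker sums of 2761 to 4364 CPM in OE and 1798 to 3292 CPM in gas-1, and the part of germline RNA in them was not tested. With the germline score as a covariate edgeR called 31 of the 67 rises again, and which of these genes were among them was not read.

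Among the falls outside the lists, gale-1, the UDP-galactose epimerase gene, had 40.1, 35.1, 38.9, 49.96 and 44.8 CPM in the OE libraries, against 132, 72, 135, 79.6 and 76.2 CPM in the gas-1 libraries, without overlap (log2 -1.24 ± 0.19, adjusted p = 0.00327). gba-2, a glucocerebrosidase gene, had 12.8 ± 8.26 CPM in OE and 46.1 ± 12.4 CPM in gas-1 (log2 -1.85 ± 0.41, adjusted p = 0.0317). lmtr-3, of the Ragulator complex that anchors TORC1 signalling to the lysosome, had 17.1 ± 4.28 CPM in OE and 39.2 ± 6.7 CPM in gas-1 (log2 -1.19 ± 0.20, adjusted p = 0.005). idi-1, an isoprenoid synthesis gene, had 16.53 ± 2.41 CPM in OE and 33.4 ± 6.83 CPM in gas-1 (log2 -1.01 ± 0.17, adjusted p = 0.00557), and ftt-2, a 14-3-3 protein gene, had 135 ± 28.3 CPM in OE and 232 ± 56.3 CPM in gas-1 (log2 -0.79 ± 0.19, adjusted p = 0.0461), with overlap in the last. nlp-39, a neuropeptide-like gene, had no count in any OE library and 3.61, 12, 0.874, 1.12 and 2.24 CPM in the gas-1 libraries, at least 126-fold lower in OE against a floor of 3 counts over the OE group.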
